A study of Mus musculus with 20 samples.

Results

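The 4 week experiment compared the arcuate nucleus (ARC) of mice that drank corticosterone (Cort) with that of mice that drank vehicle. Its members are the 10 samples of the 4 week raw count table, of 20 samples in the series, and each is 1 amplified RNA-seq library with counts for 22048 genes. They were C57BL6/J males, singly housed and labelled as 10 weeks old. In the paper the 10 week old mice were acclimatised and measured at baseline before treatment, so they were older at collection. The vehicle group (5 samples, C01 to C05) had 1% ethanol in its drinking water and the Cort group (5 samples, C06 to C10) had 75 µg/ml Cort in the same solvent. Treatment lasted 4 weeks in both. Both groups were then fasted for 16 h and refed for 24 h while still on treatment, so neither group shows the ARC of freely fed mice. The whole ARC was cut by laser capture from cresyl violet stained sections of 12 µm. The study excluded vehicle C01, vehicle C05 and Cort C06 as outliers, and each comparison is therefore given over the 7 samples it kept (3 vehicle, 4 Cort) and over all 10.

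Cort is the main glucocorticoid of mice. It acts through the glucocorticoid receptor, which is held in the cytoplasm by heat shock proteins, moves to the nucleus when it binds hormone and there activates or represses genes, often as a dimer on a pair of facing short sites in DNA. The ARC lies at the base of the hypothalamus and senses circulating hormones and nutrients. Its AgRP/NPY neurons drive feeding and its POMC neurons restrain it, and long exposure to excess glucocorticoid is known to raise food intake and body fat. The comparison asks which transcripts of this nucleus differ after 4 weeks of Cort.

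Totals ran from 1065776 to 5196364 counts per sample, at which 3 counts, used here as a floor for counting error only, correspond to 0.605 to 2.81 CPM (counts scaled to library size). The samples were unequal in more than depth. A gene was counted as missing from a sample when the other 9 had a median of at least 20 CPM and the sample had no count. There were 77, 78 and 97 such genes in C01, C05 and C06, and 2 to 10 in 6 of the 7 samples kept. The kept Cort sample C07 had 39, although it had the largest total. On the principal components of the 500 most variable genes C06 stood alone on the first (coordinate 64.9), C05 on the second (55.2) and C01 on the third (53.7), and C07 lay at the other end of the second (-34.5) and far out on the fourth (41.3). None of the first 4 components separated all vehicle from all Cort samples. The ARC genes Agrp, Npy and Pomc had counts in all 10 samples. Pituitary Gh, Prl, Lhb, Fshb and Pou1f1 had no count in any sample, and the ventromedial marker Nr5a1 had 1 count in 1 sample. With bulk tissue, fewer cells of a type and less RNA per cell cannot be told apart, and nothing in the labels says whether samples were processed in batches.

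**Figure D1:**
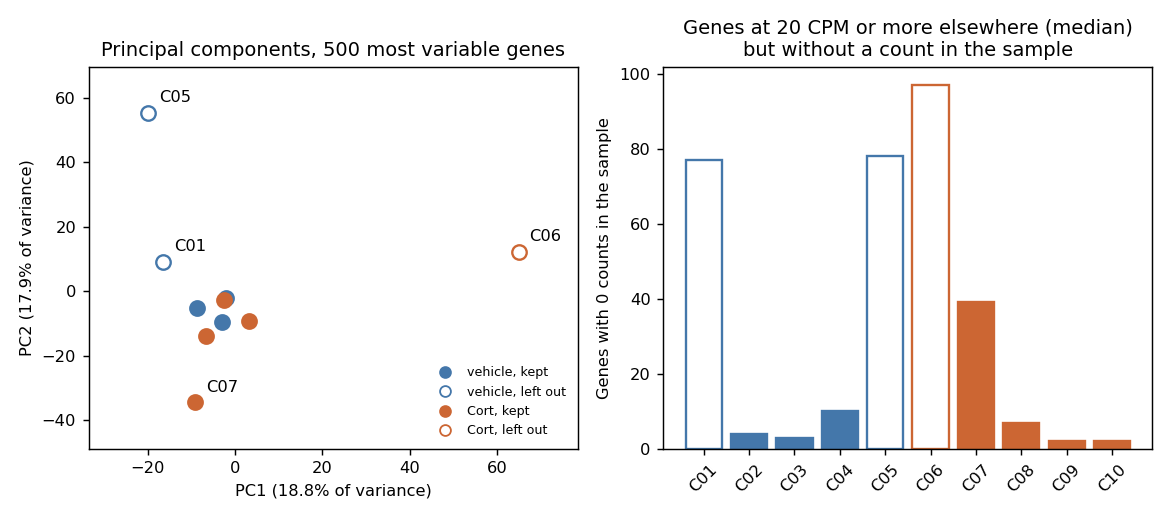
Left, the first and second principal components (share of variance on each axis) computed on log2 CPM over the 500 genes of largest variance, 1 point per sample. Right, the number of genes with a median of at least 20 CPM in the other 9 samples but no count in the sample. Blue is vehicle and orange is Cort, filled for the 7 samples kept and open for the 3 left out. C05 and C06 stand apart in both panels, and C01 in the right panel and on the third component, which is not drawn. C07, which was kept, lies at the other end of the second component from C05 and has 39 missing genes against 97 in C06.

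The promoters of 3 genes are shown first, because single glucocorticoid receptor sites can be read in them and their transcripts are described below. Each window runs from 250 bases before to 50 bases after an annotated start (RefSeq, GRCm38.p6), on the strand of the gene, with every site AGAACA, or TGTTCT where it lies on the other strand, in capitals. Fam107a, which rose in both sample sets, is shown at its downstream start (chr14:8309730-8310029, minus strand), where 2 sites face each other at positions 93 and 141. Fam43a (chr16:30599473-30599772, plus strand) has none. Sgk1 (chr10:21993640-21993939, plus strand) has 3, of which a pair forms the palindrome AGAACA, any 3 bases, TGTTCT.
Fam107a: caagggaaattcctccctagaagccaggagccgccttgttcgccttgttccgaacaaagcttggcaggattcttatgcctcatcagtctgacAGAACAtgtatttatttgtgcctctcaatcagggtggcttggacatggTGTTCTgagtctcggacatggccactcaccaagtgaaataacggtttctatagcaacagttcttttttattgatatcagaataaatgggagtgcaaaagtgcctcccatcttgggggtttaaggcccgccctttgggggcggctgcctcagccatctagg
Fam43a: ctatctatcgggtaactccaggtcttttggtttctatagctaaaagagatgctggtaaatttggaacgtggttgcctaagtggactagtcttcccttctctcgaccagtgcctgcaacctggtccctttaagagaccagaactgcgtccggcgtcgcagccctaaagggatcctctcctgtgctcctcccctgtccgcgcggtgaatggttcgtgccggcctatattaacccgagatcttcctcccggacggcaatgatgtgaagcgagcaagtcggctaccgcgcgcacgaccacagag
Sgk1: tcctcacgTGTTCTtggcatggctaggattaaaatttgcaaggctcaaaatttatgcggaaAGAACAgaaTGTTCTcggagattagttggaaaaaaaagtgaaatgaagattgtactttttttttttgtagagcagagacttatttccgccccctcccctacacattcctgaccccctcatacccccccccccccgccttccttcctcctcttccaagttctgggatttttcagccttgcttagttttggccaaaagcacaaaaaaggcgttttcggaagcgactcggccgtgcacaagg
These letters are common. Such a site lies in 19.0% of all 32851 promoter windows and in 7 of 33 windows (21.2%) of the glucocorticoid-induced genes. By gene the shares were 21.3% of all and 19.0% of the glucocorticoid-induced genes. The palindrome lies in 3 of all windows (0.00913%), and the Sgk1 window is 1 of them. Other Sgk1 windows, not shown, hold 1 site or none. The 2 facing sites of Fam107a lie further apart than in the palindrome and do not form it. The Fam107a window further upstream (chr14:8317558-8317857) holds no such site, and neither do the windows of Ina and Npy. Sgk1 itself was at 23.3, 48.5 and 19.2 CPM in the kept vehicle samples and at 70.4, 23.0, 17.03 and 44.5 CPM in the kept Cort samples. The groups overlapped fully, so the gene with the palindrome showed no difference at this depth (log2 fold change 0.36 ± 0.74 over 7 samples and 0.27 ± 0.79 over 10 with P above 0.05 in both). A match is a description of the sequence and not evidence of binding.

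Few genes passed a threshold adjusted for all genes tested. Over the 7 samples, edgeR's quasi-likelihood test with Benjamini-Hochberg adjustment covered 11211 genes. At Padj below 0.1, 4 genes rose (0.0357%), Fam107a, Fam43a, Ina and mt-Co1, and 1 fell (0.00892%), Npy. Over all 10 samples 10398 genes were tested, Fam107a rose (0.00962%) and no gene fell (0%), although 217 were lower at an unadjusted P below 0.05 and DESeq2 gave 12 lower genes at Padj below 0.1. At an unadjusted P below 0.01, 71 genes were higher (0.633%) and 45 lower (0.401%) over 7, against 65 (0.625%) and 36 (0.346%) over 10. At P below 0.05 the shares were 2.95% higher and 1.95% lower over 7, and 2.81% and 2.09% over 10. The ranges of vehicle and Cort were apart for 3.11% of genes in the higher direction and 3.4% in the lower direction over 7, and for 0.51% and 0.414% over 10. These percentages are the background for every count of genes below. With no difference between groups, P falls below 0.05 for about 0.05 of genes and below 0.01 for about 0.01, both directions together. Groups drawn at random would be apart for 0.0571 of genes over 7 and 0.00794 over 10. They were apart for 730 of 11211 genes and 96 of 10398. The shares were near these levels, so P below 0.05 or groups apart do not by themselves mark a gene as different. Errors given as ± are standard errors (SE) of the fit, and genes described as having P below 0.05 without a Padj did not pass the adjusted threshold with edgeR. Some of these genes passed it with DESeq2, such as Kcnj3 (Padj = 0.0212) and Tubgcp3 (Padj = 0.0103) over 7 samples. The spread between samples was large (edgeR's common biological coefficient of variation 0.797 over 7 and 0.859 over 10), and the median standard error of a log2 fold change, 0.81 over 7, was larger than the median absolute change, 0.51.

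The 5 calls were fragile over 7 samples. All had the same Padj, 0.0966, just under the threshold. None passed when C03, C04, C08, C09 or C10 was left out (Padj 0.188 to 0.725), 1 passed without C02 (Fam107a) and all 5 passed without C07 (Padj 0.00119 to 0.0619). Over 10 samples Fam107a (Padj = 0.0311) was lost without C03, C04, C07, C09 or C10 (Padj 0.123 to 0.183). Over 7 samples DESeq2 kept 4 of the 5, all but mt-Co1. The log2 fold changes themselves moved little in these refits (1.299 to 1.75 for Fam107a, 2.97 to 3.69 for Fam43a, 1.99 to 2.33 for Ina, 0.32 to 0.40 for mt-Co1 and -2.91 to -2.12 for Npy over 7). An exact 2-sided permutation test on mean log2 CPM gave p = 0.0571 for each of the 5 over 7 samples, the smallest that 3 against 4 can reach. Over 10 the exact test gave p = 0.00794, the smallest that 5 against 5 can reach, for Fam107a, Fam43a and Ina, p = 0.127 for Npy and p = 0.397 for mt-Co1, unadjusted and among 109 genes so tested. Groups that are fully apart always give the smallest p. For genes picked from these same samples it only restates the separation and is no further support.

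Fam107a (ENSMUSG00000021750, chr14:8296274-8318023, minus strand), an actin-binding protein of neurons and astrocytes known to respond to glucocorticoids and stress, was the 1 gene that rose in both sample sets. It was at 363, 211 and 223 CPM in the kept vehicle samples and at 789.6, 588, 737 and 755 CPM in the kept Cort samples. The left-out samples fell on the same sides, with 216 and 202 CPM in the left-out vehicle samples and 755 CPM in the left-out Cort sample, so that all 5 Cort samples lay above all 5 vehicle samples. The lowest Cort value, in C08, was still above the highest vehicle value, in C02. The log2 fold change was 1.44 ± 0.25 (SE, Padj = 0.0966) over 7 and 1.57 ± 0.24 (SE, Padj = 0.0311) over 10, or 2.70-fold and 2.97-fold. With upper quartile scaling over 7 samples Padj was 0.104, just past the threshold, and over the other 5 alternative settings it was 8.15e-05 to 0.0931.

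Fam43a (ENSMUSG00000046546, chr16:30599723-30602797, plus strand) rose most in fold among the 5. It was at 7.42, 13.3 and 20.98 CPM in the kept vehicle samples against 138, 135, 169.8 and 88.7 CPM in the kept Cort samples. The left-out Cort sample C06 had the highest value of all, 320.5 CPM, and the left-out vehicle samples had 0 and 27.9 CPM, so the groups were apart in both sets. The log2 fold change was 3.26 ± 0.55 (SE, Padj = 0.0966) over 7 and 3.58 ± 0.69 (SE, Padj = 0.186) over 10. With voom and sample quality weights Padj was 0.258 over 7 samples and 0.151 over 10, whereas DESeq2 gave 3.54e-07 and 1.20e-05 and edgeR with no filter 0.00286 and 0.0221.

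Ina (ENSMUSG00000034336, chr19:47014698-47025327, plus strand) encodes alpha-internexin, an intermediate filament protein of neurons. It was at 68.8, 54.1 and 68.3 CPM in the kept vehicle samples and at 344, 383, 184 and 229 CPM in the kept Cort samples. C01 and C05 had 24.4 and 104 CPM and C06 had 185 CPM, again with no overlap. The log2 fold change was 2.16 ± 0.36 (SE, Padj = 0.0966) over 7 and 2.04 ± 0.40 (SE, Padj = 0.186) over 10, and with voom and quality weights Padj was 0.216 over 7 and 0.0857 over 10. DESeq2 gave Ina Padj = 3.22e-06 and 5.40e-04. Of its exon bases 14.1% also belong to Nt5c2, and the library kit does not keep strand, so reads of that stretch cannot be told apart.

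Npy (ENSMUSG00000029819, chr6:49822710-49829507, plus strand), the feeding peptide made by the AgRP neurons, fell over the 7 samples. Its kept vehicle values were 539, 318 and 474 CPM and its kept Cort values 177, 73.1, 49.0 and 54.5 CPM, without overlap. The left-out samples lay across both groups, since vehicle C01 had 49.6 CPM, about the level of the lowest Cort samples, vehicle C05 had 207 CPM and Cort C06 had 274 CPM. The log2 fold change was -2.31 ± 0.41 (SE, Padj = 0.0966) over 7 and -1.34 ± 0.54 (SE, Padj = 0.991) over 10. Over 7 samples Padj stayed below 0.1 with every alternative tool, scaling and filter (1.10e-04 with DESeq2 to 0.0931 with DESeq2 size factors in edgeR). Over 10 samples it was above 0.1 with each of them (0.406 to 0.998), with a log2 fold change of -2.20 by voom (Padj = 0.426). Whether Npy differed therefore rested on the choice of samples.

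**Figure D2:**
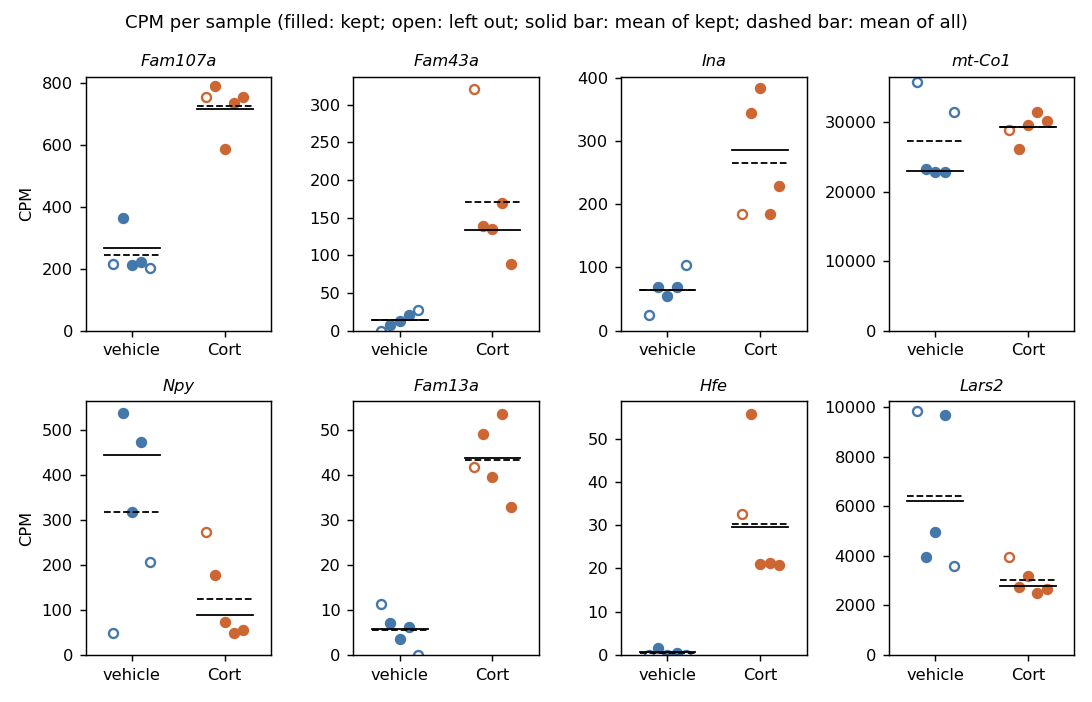
CPM per sample (vertical axis, linear and from 0) of 8 genes with vehicle (blue) and Cort (orange). Filled points are the 7 samples kept and open points the 3 left out, and bars are the means of the kept (solid) and of all samples (dashed). Fam107a, Fam43a, Ina, Fam13a and Hfe are apart in both sample sets, whereas for Npy, mt-Co1 and Lars2 open points cross to the other group.

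The fifth call, mt-Co1 (ENSMUSG00000064351), encodes a catalytic subunit of cytochrome c oxidase on the mitochondrial genome. It was at 23223, 22900.1 and 22825 CPM in the kept vehicle samples and 26195, 29586, 31448 and 30166 CPM in the kept Cort samples. The left-out vehicle samples, at 35838 and 31469 CPM, were above every Cort sample, and C06 was at 28947 CPM. The rise over 7 samples was small (0.36 ± 0.063 log2, SE, Padj = 0.0966, 1.28-fold), and over 10 the value was 0.10 ± 0.12 (SE, Padj = 0.991). Over 7 samples Padj was 0.995 with upper quartile scaling, 0.475 with DESeq2 and 4.16e-08 with voom and quality weights. Over 10 samples voom gave a log2 fold change of 0.31 with Padj = 0.0792, and DESeq2 gave 0.072 with Padj = 0.975. The call thus depended on the tool as well as on the samples. Of its 50-base stretches 51.1% also occur in other annotated transcripts, so that counts depend on how multiply mapped reads were treated, which is not given in the sources used here.

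The other transcripts of the mitochondrial genome, which encodes subunits of the respiratory chain and is transcribed as long precursors, were higher in part over 7 samples. Of the 13 genes of that list 12 were tested over 7 samples, and 9 of 12 tested members were above 0 over 7 samples (median 0.31) and 7 of 11 over 10 (median 0.12), against medians of 0.038 and 0.01 over all genes tested. At P below 0.05, 7 were higher over 7 samples (58.3% of those tested, against 2.95% of all genes) and 2 over 10 (18.2%, against 2.81%). None was lower in either set. mt-Nd2, a subunit of complex I, had 3220.5, 3039.8 and 3482 CPM in the kept vehicle samples and 4143, 6232, 5219 and 5568 CPM in the kept Cort samples. C01, C05 and C06 had 3945, 4152 and 4024 CPM, so that C05 lay above the lowest Cort samples. Its log2 fold change was 0.71 ± 0.13 over 7 samples and 0.50 ± 0.16 over 10 with P below 0.05 in both (Padj = 0.111 and 0.968 by edgeR, 0.0442 and 0.502 by DESeq2, 0.00236 and 0.00863 by voom), and 8.19% of its 50-base stretches are shared. mt-Nd6, the complex I subunit on the opposite strand, had a log2 fold change of 0.46 ± 0.17 over 7 samples and 0.39 ± 0.18 over 10 with P below 0.05 in both. For mt-Nd1, mt-Nd4, mt-Nd5 and mt-Cytb the values over 7 were 0.31, 0.38, 0.30 and 0.27, all with P below 0.05, and over 10 none of them had P below 0.05. The members below 0 over 7 samples were mt-Co2, mt-Atp6 and mt-Atp8. Other annotated transcripts hold 98.0% or more of the 50-base stretches of mt-Co2, mt-Co3, mt-Atp6, mt-Nd3 and mt-Nd4l, whose levels were low (at most 260.4 CPM). The summed level of the list was 77733 to 85354 CPM in the kept vehicle samples and 86904 to 108667 CPM in the kept Cort samples. C01 (118585 CPM) and C05 (106547 CPM), both vehicle, reached or passed the Cort range.

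Lars2, the nuclear gene for the leucyl-tRNA synthetase of mitochondria, had among the lowest P in both sets but did not pass the adjusted threshold with edgeR, and it is described because its values were seen. It was at 3961, 4980.2 and 9693 CPM in the kept vehicle samples and at 2749.8, 3183, 2502 and 2674 CPM in the kept Cort samples. C01 had 9873 CPM, C05 3577 CPM and C06 3955 CPM. The kept groups did not overlap, but within vehicle the level differed more than 2-fold, with C01 and C04 far above the other 3. The log2 fold change was -1.16 ± 0.22 over 7 samples and -1.09 ± 0.25 over 10 with P below 0.05 in both (Padj = 0.111 and 0.578). DESeq2 gave Padj = 0.00649 over 7 and 0.0493 over 10, and over 7 edgeR gave 3.63e-04 with no filter and 0.00761 with a minimum of 10 counts, whereas voom gave 0.222 and 0.1596. Without C04 the log2 fold change was -0.68 over 7 samples (Padj = 0.398).

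**Figure D3:**
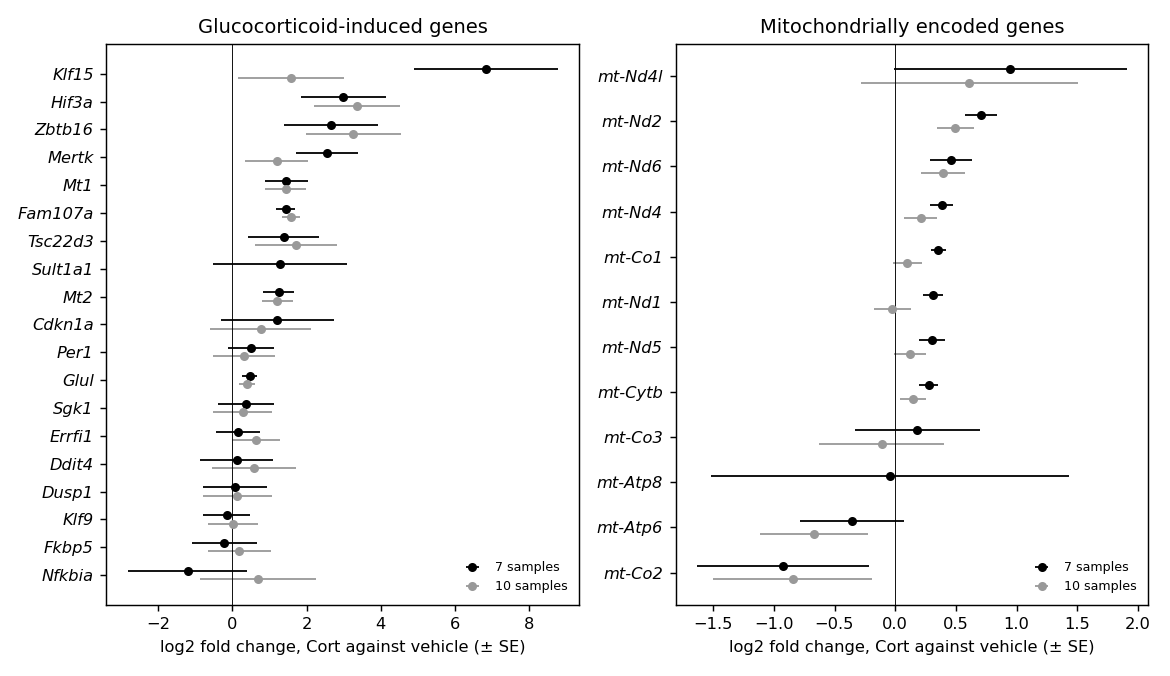
Log2 fold change of Cort against vehicle (horizontal axis, ± SE) for the tested members of the glucocorticoid-induced list (left) and of the mitochondrially encoded list (right), over 7 samples (black) and over 10 (grey). Most members of the left panel lie above 0 in both sets, with the fitted value of Klf15, which had 0 to 1 count in each kept vehicle sample, at 6.84 over 7 samples and 1.58 over 10, and in the right panel the error bars of mt-Nd2 and mt-Nd6 stay clear of 0 in both sets.

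Genes that glucocorticoids are known to induce in many tissues were higher more often than not. Of 24 listed genes 19 were tested over 7 samples, and 16 of 19 tested members were above 0 over 7 samples (median 1.22) and 18 of 18 over 10 (median 0.73), beside medians of 0.038 and 0.01 over all genes tested. At P below 0.05, 7 were higher and 0 lower over 7 samples (36.8% of those tested, against 2.95% of all genes higher) and 5 were higher and 0 lower over 10 (27.8%, against 2.81%). Fam107a, a member of the list, was the 1 gene of it that passed the adjusted threshold. Klf15, 1 of the 7, had 0 to 1 count in each kept vehicle sample. It entered the test, the median and the count only through Cort samples. The list was written with earlier results of these data known, so its count is not independent evidence. Without C07 its median over the 6 remaining samples was 0.79.

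The metallothioneins Mt1 and Mt2, which bind zinc and copper, were higher with P below 0.05 in both sets. Mt1 was at 20.6, 31.1 and 64.7 CPM in the kept vehicle samples and at 175, 58.3, 68.6 and 119.7 CPM in the kept Cort samples, with 37.5 and 20.3 CPM in the left-out vehicle samples and 51.4 CPM in the left-out Cort sample. The kept groups overlapped through C04 and C08. Its log2 fold change was 1.45 ± 0.57 over 7 samples and 1.44 ± 0.55 over 10. Mt2 was at 81.6, 44.4 and 163 CPM in the kept vehicle samples and 235, 243, 251.9 and 184 CPM in the kept Cort samples, with 87.1 and 52.4 CPM in the left-out vehicle samples and 82.1 CPM in the left-out Cort sample, and its log2 fold change was 1.25 ± 0.41 over 7 samples and 1.21 ± 0.42 over 10 with P below 0.05 in both. The kept groups of Mt2 did not overlap, but C06 lay within the vehicle range, and 73.5% of its exon bases are shared with the annotated gene Gm45774. Glul, glutamine synthetase of astrocytes, had a log2 fold change of 0.46 ± 0.19 over 7 samples and 0.39 ± 0.22 over 10 with P below 0.05 over 7 alone.

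Members that encode transcription factors were low and uneven. Hif3a, a factor of the hypoxia-inducible family, was at 6.07, 8.08 and 0.446 CPM in the kept vehicle samples and at 4.03, 39.3, 85.7 and 28.6 CPM in the kept Cort samples, and its log2 fold change was 2.995 ± 1.16 over 7 samples and 3.36 ± 1.15 over 10 with P below 0.05 in both. Zbtb16, a zinc finger factor, was at 1.69, 2.02 and 5.80 CPM in the kept vehicle samples and 2.22, 21.4, 38.7 and 18.6 CPM in the kept Cort samples (log2 fold change 2.66 ± 1.26 over 7 samples and 3.26 ± 1.28 over 10 with P below 0.05 over 10 alone). Klf15, a Krüppel-like factor, had 0 to 1 count in each kept vehicle sample against 0.605, 41.4, 5.16 and 31.4 CPM in the kept Cort samples, while the left-out vehicle samples C01 and C05 had 6.56 and 24.1 CPM and Cort C06 had 14.4 CPM. The fitted change of Klf15 over 7 samples therefore depends on the prior count of the model and is no bound, and over 10 it was 1.58 ± 1.42 with P above 0.05. Mertk, a receptor tyrosine kinase for the uptake of dying cells, was at 5.40, 5.66 and 11.2 CPM in the kept vehicle samples and 25.2, 36.0, 41.8 and 69.8 CPM in the kept Cort samples, but at 23.4 and 32.6 CPM in C01 and C05 and 5.75 CPM in C06 (log2 fold change 2.54 ± 0.84 over 7 samples and 1.19 ± 0.85 over 10 with P below 0.05 over 7 alone). Kept groups were apart for Mertk, but C05 lay within the Cort range and C06 at the level of the kept vehicle samples.

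Several textbook targets had no P below 0.05. Fkbp5, which binds the receptor complex and is strongly induced in many cells, was at 164, 19.8 and 3.12 CPM in the kept vehicle samples and 69.6, 76.7, 27.4 and 39.9 CPM in the kept Cort samples (log2 fold change -0.22 ± 0.88 over 7 samples and 0.19 ± 0.85 over 10 with P above 0.05 in both). One vehicle sample, C02, held the highest value of all 10. Tsc22d3, also called GILZ, had a log2 fold change of 1.38 ± 0.96 over 7 samples and 1.72 ± 1.10 over 10 with P above 0.05 in both, with 66.4 CPM in C10 as its highest value. Per1, Sgk1, Ddit4, Klf9, Dusp1 and Errfi1 had absolute log2 fold changes of at most 0.64 in either set, with no P below 0.334. Plin4, Pdk4, Angptl4 and Arl4d were too low to be tested.

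On the receptor side of the pathway no gene passed the adjusted threshold. Nr3c1, the glucocorticoid receptor, was at 259, 299 and 252.2 CPM in the kept vehicle samples and 172, 157, 226 and 177 CPM in the kept Cort samples, and at 445 and 162 CPM in C01 and C05 and 198 CPM in C06. The kept groups did not overlap, and the log2 fold change was -0.56 ± 0.28 over 7 samples and -0.61 ± 0.30 over 10 with P above 0.05 in both. Ncor1, a corepressor of nuclear receptors, had 462, 327 and 206 CPM with vehicle and 156, 149, 195 and 209 CPM with Cort among the kept samples, and its log2 fold change was -0.90 ± 0.31 over 7 samples and -0.82 ± 0.30 over 10 with P below 0.05 in both. It was the 1 of 14 tested receptors and cofactors with P below 0.05 in either set (7.14%, against 1.95% and 2.09% of all genes lower). Nr3c2, the mineralocorticoid receptor, had a log2 fold change of -0.53 ± 1.07 over 7 samples and -0.77 ± 0.95 over 10 with P above 0.05 in both, and Hsd11b1, which regenerates active glucocorticoid, was too low to be tested.

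Among the peptides that define ARC neurons, Npy was the only one past the adjusted threshold, and only over 7 samples. Agrp, made in the same neurons as Npy, was at 289, 154 and 199 CPM in the kept vehicle samples and 227, 145, 119 and 99.3 CPM in the kept Cort samples. C01, C05 and C06 had 137, 18.2 and 88.8 CPM, and the groups overlapped (log2 fold change -0.53 ± 0.37 over 7 samples and -0.24 ± 0.50 over 10 with P above 0.05 in both). Pomc, the precursor of the satiety peptide alpha-MSH, was at 216, 193 and 160.2 CPM in the kept vehicle samples and 193, 203, 120.3 and 229 CPM in the kept Cort samples (log2 fold change -0.02 ± 0.32 over 7 samples and 0.52 ± 0.46 over 10 with P above 0.05 in both). Its lowest values, 20.6 and 78.2 CPM, were in the vehicle samples left out.

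Tac2, which encodes neurokinin B in the kisspeptin neurons of the ARC, was at 41.5, 34.3 and 7.59 CPM in the kept vehicle samples and at 67.1, 187, 51.1 and 132 CPM in the kept Cort samples, with 12.2 and 55.4 CPM in the left-out vehicle samples and 29.1 CPM in the left-out Cort sample. The kept groups did not overlap, and over 10 samples C05 lay above C06 and C09. The log2 fold change was 1.98 ± 0.65 over 7 samples and 1.62 ± 0.65 over 10 with P below 0.05 in both. Kiss1 itself had at most 2 counts in any sample. Ghrh, the releasing hormone for growth hormone, was at 146, 99.8 and 141 CPM in the kept vehicle samples and 32.3, 102, 23.2 and 97.5 CPM in the kept Cort samples (log2 fold change -1.01 ± 0.53 over 7 samples and -0.997 ± 0.70 over 10 with P above 0.05 in both), with 1.92 CPM in C06. Cartpt had a log2 fold change of 0.18 ± 0.35 over 7 samples and 0.86 ± 0.40 over 10 with P below 0.05 over 10 alone. C06 had 367 CPM, the highest value, and C01 and C05 had 63.7 and 66.4 CPM, the lowest, and without C06 the second value was 0.54. Pdyn, Sst and Gal had log2 fold changes of -0.32 and -0.58, -0.17 and 0.072, and -0.47 and -0.077 over 7 and 10 samples, none with P below 0.05. Of the 21 tested peptide, transmitter and identity genes of the ARC, 1 was higher and 1 lower at P below 0.05 over 7 samples and 2 were higher and 1 lower over 10, with medians of -0.10 and -0.014. Higher members were 4.76% and 9.52% of those tested, against 2.95% and 2.81% of all genes. The lower one was 4.76% in each set, against 1.95% and 2.09%.

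**Figure D4:**
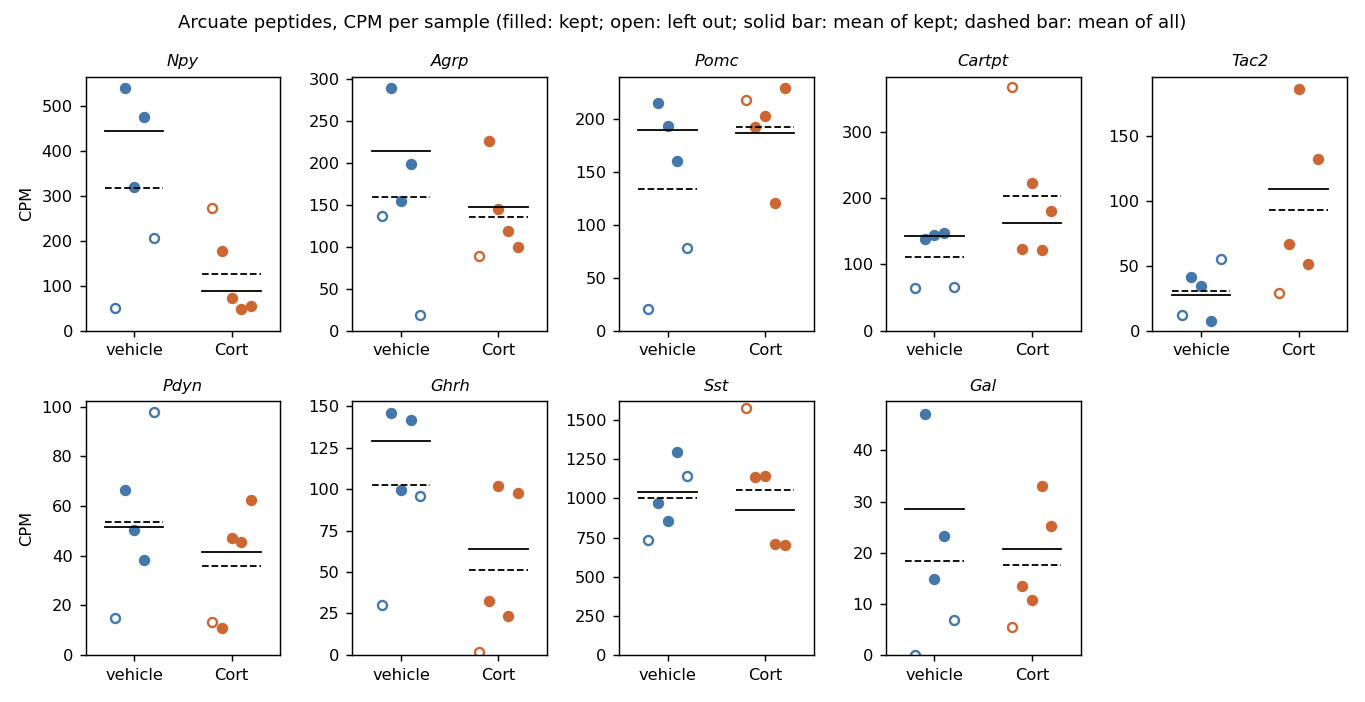
CPM per sample (vertical axis, linear and from 0) of 9 peptide genes of the ARC with vehicle (blue) and Cort (orange), filled for samples kept and open for samples left out, with bars for the mean of the kept (solid) and of all samples (dashed). Kept samples are apart for Npy and Tac2, and the open point of C05 lies lowest for Agrp, as those of C01 and C05 do for Pomc.

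Receptors for feeding and metabolic hormones gave few differences. Glp1r, the receptor of the incretin GLP-1, was at 12.1, 37.6 and 15.2 CPM in the kept vehicle samples and 117, 85.1, 26.3 and 68.2 CPM in the kept Cort samples, with 12.2 and 11.8 CPM in the left-out vehicle samples and 320.5 CPM in the left-out Cort sample. The overlap came from C03 and C09, and the log2 fold change was 1.79 ± 0.69 over 7 samples and 2.78 ± 0.65 over 10 with P below 0.05 in both (Padj = 0.990 and 0.615 by edgeR, 0.351 and 0.00885 by DESeq2). Cnr1, the cannabinoid receptor of neurons, had a log2 fold change of 0.97 ± 0.49 over 7 samples and 1.31 ± 0.46 over 10 with P below 0.05 over 10 alone. Gpr12, an orphan receptor, had a log2 fold change of -3.63 ± 1.11 over 7 samples and -2.14 ± 1.09 over 10 with P below 0.05 over 7 alone. Its Padj over 7 was 0.918 by edgeR and 0.0936 by DESeq2. Esr1, the estrogen receptor, had a log2 fold change of 1.31 ± 0.49 over 7 samples and 0.64 ± 0.50 over 10 with P below 0.05 over 7 alone, with 179 CPM in vehicle C05 above every Cort sample. The leptin receptor Lepr, the ghrelin receptor Ghsr and the insulin receptor Insr had log2 fold changes of -1.36 and -1.26, 0.73 and 0.29, and 0.045 and 0.022 over 7 and 10 samples, with no P below 0.1. Of 19 tested receptors, 2 were higher and 1 lower at P below 0.05 over 7 and 2 were higher and 2 lower over 10. Higher members were 10.5% of those tested in each set, against 2.95% and 2.81% of all genes. Lower ones were 5.26% and 10.5%, against 1.95% and 2.09%.

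Downstream of insulin and leptin, 3 of 24 tested genes (Sesn1, Gsk3a and Ppargc1a) were higher at P below 0.05 over 7 samples. This was 12.5% of them, against 2.95% of all genes. None was lower, and none had P below 0.05 over 10. Sesn1, a FoxO target that restrains TORC1, was at 16.9, 32.7 and 58.9 CPM in the kept vehicle samples and 60.9, 194, 138 and 124 CPM in the kept Cort samples, but vehicle C01 had 95.5 CPM and Cort C06 had 24.3 CPM, which removed the separation (log2 fold change 1.84 ± 0.55 over 7 samples and 1.18 ± 0.58 over 10 with P below 0.05 over 7 alone). Gsk3a, a kinase that insulin inhibits, had a log2 fold change of 1.16 ± 0.50 over 7 samples and 0.77 ± 0.62 over 10 with P below 0.05 over 7 alone and shares 28.3% of its exon bases with another annotated gene. None of the 9 tested immediate early genes had P below 0.05 in either set, although 8 of 9 and 8 of 8 were above 0. Among 18 clock genes tested over 7 samples, Rora (log2 fold change 1.64 and 0.69 over 7 and 10) and Clock (0.78 and -0.0024) were higher at P below 0.05 over 7 only. These were 11.1% of those tested, against 2.95% of all genes. Vehicle C05 held the second highest value of all samples for Rora (313 CPM) and the highest for Clock (467 CPM). Cry2, a repressor of the clock, was lower at P below 0.05 over 10 only (-0.45 and -2.26). It was 1 of 16 clock genes tested over 10 samples (6.25%, against 2.09% of all genes lower).

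Among potassium channels, which set the excitability of neurons, more members were higher than lower at P below 0.05, as over all genes tested. Kcna3, a voltage-gated potassium channel, was low but apart in both sets, at 6.75, 2.83 and 5.80 CPM in the kept vehicle samples, 73.2, 46.8, 14.97 and 14.9 CPM in the kept Cort samples, 0.937 and 0.846 CPM in C01 and C05 and 12.8 CPM in C06 (log2 fold change 2.87 ± 0.98 over 7 samples and 3.20 ± 1.01 over 10 with P below 0.05 in both). Kcnj3, a subunit of the channels that G proteins open, was at 28.7, 51.7 and 28.1 CPM in the kept vehicle samples and 338, 239.6, 104 and 51.2 CPM in the kept Cort samples, with 102 and 123 CPM in the left-out vehicle samples and 201 CPM in the left-out Cort sample, and 31.1% of its exon bases overlap another annotated gene (log2 fold change 2.35 ± 0.59 over 7 samples and 1.49 ± 0.53 over 10 with P below 0.05 in both). Kcnq3 and Kcnq5, subunits of the M-current, were higher with P below 0.05 over 7 only (1.07 and 0.87 for Kcnq3 and 2.13 and 1.61 for Kcnq5 over 7 and 10), and Kcnj10, the Kir4.1 channel of glia, was lower over 7 only (-0.84 and -0.56). Of 32 potassium channel genes tested over 7 samples, 4 were higher and 1 lower at P below 0.05, and 2 were higher and 0 lower of 30 over 10. Higher members were 12.5% and 6.67% of those tested, against 2.95% and 2.81% of all genes. The lower one was 3.13% over 7, against 1.95%.

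Of 25 GABA and glutamate receptor subunits, 2 were higher and 1 lower at P below 0.05 over 7 and 2 were higher and 0 lower over 10. Higher members were 8% of those tested in each set, against 2.95% and 2.81% of all genes. The lower one was 4% over 7, against 1.95%. Gabrb1, a GABA A subunit, was at 222, 207 and 207 CPM in the kept vehicle samples and 356, 325, 504 and 324 CPM in the kept Cort samples, with 456 CPM in vehicle C05 (log2 fold change 0.83 ± 0.27 over 7 samples and 0.65 ± 0.29 over 10 with P below 0.05 in both). Gabrq, the theta subunit, was at 409, 399 and 299 CPM in the kept vehicle samples and 244, 274, 161 and 258 CPM in the kept Cort samples (log2 fold change -0.65 ± 0.27 over 7 samples and -0.52 ± 0.31 over 10 with P below 0.05 over 7 alone), so that subunits of the same receptor class lay in opposite directions. Gria4, an AMPA receptor subunit, had a log2 fold change of 0.84 ± 0.38 over 7 samples and 1.03 ± 0.37 over 10 with P below 0.05 in both, with 556 CPM in C06 as its highest value.

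In the cytoskeleton list Ina stood beside Dpysl4, a collapsin response mediator with a log2 fold change of 3.40 ± 1.02 over 7 samples and 2.31 ± 1.10 over 10 with P below 0.05 in both, and Tubgcp3, a gamma-tubulin complex subunit. Tubgcp3 was at 81.6, 124 and 165 CPM in the kept vehicle samples and 24.2, 36.7, 31.5 and 23.2 CPM in the kept Cort samples, with 124 and 111 CPM in the left-out vehicle samples and 97.5 CPM in the left-out Cort sample (log2 fold change -2.10 ± 0.49 over 7 samples and -1.51 ± 0.50 over 10 with P below 0.05 in both). The list as a whole did not lean one way (medians -0.089 and 0.09 over 18 genes).

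Axon guidance and matrix genes held more lower than higher members at P below 0.05. Over 7 samples 1 was higher and 6 lower of 29 tested (20.7% lower against 1.95% of all genes, 3.45% higher against 2.95%). Over 10 samples 0 were higher and 3 lower of 28 (10.7% lower against 2.09%). Lamc1, the laminin gamma 1 chain, was at 104, 143 and 26.3 CPM in the kept vehicle samples and 15.7, 16.0, 10.8 and 26.2 CPM in the kept Cort samples, with 9.37 and 118 CPM in the left-out vehicle samples and 11.5 CPM in the left-out Cort sample. Kept groups were barely apart, by C04 and C10, and C01 lay below all Cort samples (log2 fold change -2.39 ± 0.67 over 7 samples and -2.32 ± 0.72 over 10 with P below 0.05 in both). Vcan, the proteoglycan versican, was at 212, 84.0 and 155 CPM in the kept vehicle samples and 39.7, 99.5, 66.1 and 66.1 CPM in the kept Cort samples, overlapping through C03 and C08 (log2 fold change -1.15 ± 0.45 over 7 samples and -1.25 ± 0.46 over 10 with P below 0.05 in both). Efnb3, a membrane ephrin, had a log2 fold change of -0.82 ± 0.38 over 7 samples and -0.89 ± 0.41 over 10 with P below 0.05 in both. The integrin Itgb5 (-2.86 and -1.79 over 7 and 10), Itgb1 (-0.96 and -0.89) and the collagen Col4a1 (-3.36 and -0.47) were lower at P below 0.05 over 7 only, and Fn1, fibronectin, was the 1 higher member (2.09 and 0.97).

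Energy metabolism beyond the mitochondrial genome was mixed. Of 27 nuclear respiratory chain genes 1 was higher and 1 lower at P below 0.05 over 7, and 2 were higher and 1 lower of 26 over 10. Higher members were 3.70% and 7.69% of those tested, against 2.95% and 2.81% of all genes. Lower ones were 3.70% and 3.85%, against 1.95% and 2.09%. Of these nuclear partners of the mt genes 15 of 27 were above 0 over 7 and 19 of 26 over 10 (medians 0.077 and 0.17). Atp5g1, a c subunit of ATP synthase, was at 43.2, 14.1 and 30.4 CPM in the kept vehicle samples and 138, 75.2, 38.2 and 75.6 CPM in the kept Cort samples (log2 fold change 1.49 ± 0.62 over 7 samples and 1.99 ± 0.69 over 10 with P below 0.05 in both). Etfb, which passes electrons from fatty acid oxidation, was at 73.5, 23.0 and 67.0 CPM in the kept vehicle samples and 5.65, 2.59, 12.4 and 10.7 CPM in the kept Cort samples (log2 fold change -2.81 ± 0.84 over 7 samples and -2.53 ± 1.02 over 10 with P below 0.05 in both), and 58.2% of its exon bases overlap other annotated genes. Etfb was at 10.3, 8.04 and 0.32 CPM in C01, C05 and C06, so both left-out vehicle samples lay within the kept Cort range. Scly, which frees selenium from selenocysteine, was at 32.4, 27.5 and 17.9 CPM in the kept vehicle samples and at 0.807, 2.12, 0 and 0.609 CPM in the kept Cort samples, of which C09 and C10 were under the floor of 3 counts. The left-out vehicle samples had 9.37 and 0.423 CPM, and Scly was not tested over 10. Over 7 samples its log2 fold change was -4.75 ± 1.28 (Padj = 0.889 by edgeR and 0.0322 by DESeq2). Of 18 selenium genes tested over 7 samples 1 was higher and 1 lower at P below 0.05 (5.56% each, against 2.95% and 1.95% of all genes). Over 10 samples 1 was higher and 0 lower of 15 (6.67% higher, against 2.81%). Sqle and Elovl6, enzymes of sterol and fatty acid synthesis, had P below 0.05 over 10 only, with log2 fold changes of -0.79 and -0.94 and of 0.66 and 0.91 over 7 and 10. Of 19 heat shock proteins and cochaperones 1 was higher and 0 lower at P below 0.05 over 7 and 3 were higher and 0 lower over 10. Higher members were 5.26% and 15.8% of those tested, against 2.95% and 2.81% of all genes. Of 29 ribosomal protein genes 1 was lower at P below 0.05 in each set, Rps3 (-0.45 and -0.73). This was 3.45% of those tested, against 1.95% and 2.09% of all genes.

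No cell type marker passed the adjusted threshold with edgeR, and summed levels are given with no test. The summed astrocyte markers were 4276 to 4528 CPM in the kept vehicle samples and 4675 to 6334 CPM in the kept Cort samples, without overlap. Over all 10 they were 3030.2 to 5675 and 4675 to 6939 CPM, with overlap through C05. Aldoc, an aldolase of astrocytes, was apart in both sets, at 678, 739 and 709 CPM in the kept vehicle samples, 1316, 1102, 919.8 and 838 CPM in the kept Cort samples, 658 and 808 CPM in C01 and C05 and 900.1 CPM in C06 (log2 fold change 0.56 ± 0.20 over 7 samples and 0.50 ± 0.20 over 10 with P below 0.05 in both). The glutamate transporter Slc1a2 had a log2 fold change of 0.46 ± 0.15 over 7 samples and 0.46 ± 0.22 over 10 with P below 0.05 over 7 alone. These 2 genes made a large part of the astrocyte sum, with kept means of 2025 and 2778 CPM for Slc1a2 and 709 and 1044 CPM for Aldoc (vehicle and Cort). Of 14 astrocyte markers 9 were above 0 and 5 below over 7 samples (lowest -1.13). Over 10 samples 11 were above 0 and 3 below (lowest -1.51). Fam107a, Glul, Mt1, Mt2 and Mertk are also expressed by astrocytes, and the part of astrocyte content in their values was not tested.

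Tanycyte markers, of the cells that line the floor of the third ventricle, leaned the other way. Their sum was 899 to 1335 CPM in the kept vehicle samples and 472 to 1213 CPM in the kept Cort samples, with overlap, and Gpr50 was at 276, 359.6 and 511 CPM in the kept vehicle samples and 166, 206, 100.1 and 269 CPM in the kept Cort samples (log2 fold change -1.04 ± 0.34 over 7 samples and -0.75 ± 0.35 over 10 with P below 0.05 in both). For Gpr50, C01, C05 and C06 had 521, 216 and 382 CPM. Vehicle C05 thus lay within the kept Cort range and Cort C06 within the kept vehicle range. Vim, vimentin, had a log2 fold change of -1.26 ± 0.61 over 7 samples and -1.33 ± 0.56 over 10 with P below 0.05 over 10 alone. Of 10 tested, 6 were below 0 over 7 and 8 over 10, with a median of -0.39 over 7 that became -1.03 without C07. Endothelial and pericyte markers had a median of 1.75 over 7 and 0.64 over 10, with wide scatter between samples. These medians are not over the same members, since 10 were tested over 7 samples and 7 over 10. Several markers of the list were near the floor. Pecam1 and Cldn5 exceeded 3 counts in 5 of the 10 samples, and Cdh5 and Tek in 4. Pecam1 had 178 CPM in C07 against at most 26.8 CPM elsewhere, and Kdr had 69.7, 27.6, 23.3, 1.03 and 34.4 CPM in C06 to C10 against at most 6.34 CPM with vehicle. Neuronal markers summed to 3760.1 to 3963 CPM and 3851 to 5250.2 CPM in the kept groups, with no member at P below 0.05. The oligodendrocyte, microglial and ependymal sums overlapped between the kept groups. Ranges with vehicle were 712 to 1070.2, 272 to 483 and 52.7 to 101 CPM, and with Cort 538 to 1134, 270.5 to 415 and 45.8 to 154 CPM, in that order. Of neighbouring tissue, 5 of 7 pituitary and 4 of 8 choroid plexus markers (Folr1, Kcne2, Aqp1 and Otx2) had no count in any sample. The choroid plexus sum reached 161 CPM in C02 through Clic6 and Kl, and its defining marker Ttr was at most 5.68 CPM. Ventromedial markers summed to 10.3 to 44.9 CPM with vehicle and 27.2 to 119 CPM with Cort over all 10 samples, the highest in C10, where Cbln1 was at 75.3 CPM. Magnocellular and paraventricular markers summed to 111 to 166 and 121 to 184 CPM, mostly Otp, while Crh had no count.

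**Figure D5:**
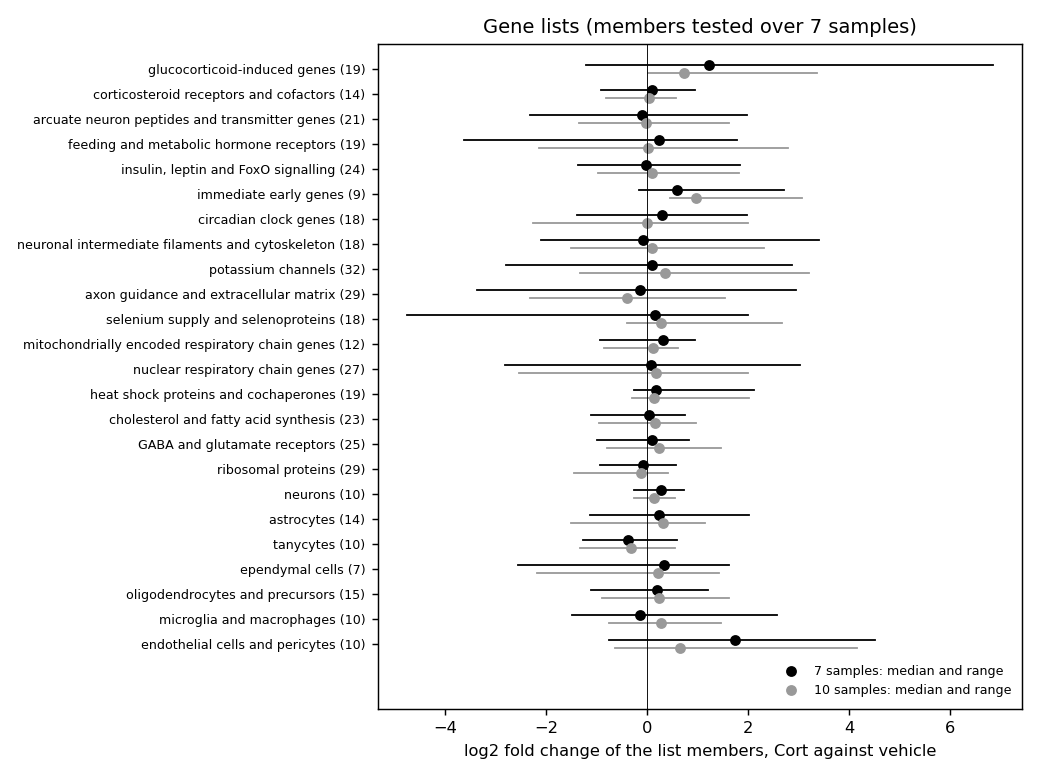
Median (point) and range (line) of the log2 fold changes of the members of each gene list with at least 5 members tested, over 7 samples (black) and over 10 (grey), with the number tested over 7 in parentheses. Medians of glucocorticoid-induced, immediate early and endothelial genes lie furthest above 0 over 7 samples (1.22, 0.58 and 1.75), and the ranges of nearly all lists cross 0. Fewer members of some lists were tested over 10 samples, as of the endothelial list (7 against 10).

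A last set was chosen after its values were seen, the genes with P below 0.01 and the same direction in both sets. There were 29 among 10384 genes tested in both sets, of which 105 had P below 0.01 over 7 and 101 over 10. The fits share 7 samples and are not independent. Of the 29 genes, Fam13a was apart in both sets, at 7.08, 3.64 and 6.25 CPM in the kept vehicle samples, 49.2, 39.5, 53.7 and 32.9 CPM in the kept Cort samples, 11.2 and 0 CPM in C01 and C05 and 41.9 CPM in C06 (log2 fold change 2.95 ± 0.83 over 7 samples and 2.95 ± 0.95 over 10 with P below 0.05 in both). The Padj of Fam13a was 0.889 over 7 and 0.968 over 10 by edgeR, and 0.0212 and 0.0666 by DESeq2. Hfe, a regulator of iron uptake, had 0 to 5 counts in each vehicle sample (at most 1.69 CPM) and 32.6, 55.9, 20.9, 21.2 and 20.7 CPM in C06 to C10 (log2 fold change 5.27 ± 1.33 over 7 samples and 5.87 ± 1.28 over 10 with P below 0.05 in both). Its Padj was 0.889 over 7 and 0.405 over 10 by edgeR, 0.00517 and 3.94e-04 by DESeq2, and 0.910 and 0.0857 by voom with quality weights.

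Others that were higher and apart in both sets were Reps1 (log2 fold change 1.64 and 2.06 over 7 and 10), an endocytic adaptor, Zhx3 (1.04 and 1.44), a transcriptional repressor, Serpina3n (0.87 and 1.19), a protease inhibitor of reactive astrocytes, Lamp5 (3.07 and 4.08) and Fam167a (2.08 and 3.08). Serpina3n was at 236, 371 and 251 CPM in the kept vehicle samples and 523, 631, 412 and 522 CPM in the kept Cort samples, with 101 and 217 CPM in the left-out vehicle samples and 611 CPM in the left-out Cort sample, and its SE was 0.25 over 7. Lower and apart in both were Cdk17 (-1.09 and -1.14), a cyclin-dependent kinase, Oplah (-3.12 and -2.58), an enzyme of glutathione breakdown, and Tmem63b (-2.04 and -1.48), a mechanically gated channel. Cdk17 had 160.2, 154, 171, 189 and 148 CPM in C01 to C05 and 51.4, 63.9, 81.1, 92.9 and 83.5 CPM in C06 to C10. Without separation over 10, Vsir (3.27 and 3.21), Igf1 (5.14 and 4.67), Ube2d2a (1.28 and 1.36), Camsap2 (0.85 and 0.84) and Ywhab (0.57 and 0.78) were higher and Nab1 (-2.10 and -2.62), Necap2 (-4.44 and -4.23), Gjc3 (-2.603 and -2.16), Ptgr2 (-3.10 and -2.39) and Dnajc11 (-2.69 and -2.31) lower. Igf1 rested on 131 CPM in C07 and 59.1 CPM in C06, and Ptgr2 on 1074 CPM in C04. Of the 29 genes, Fam107a, Fam43a and Ina passed Padj below 0.1 in at least 1 set by edgeR, and the lowest edgeR Padj among the others was 0.111 over 7 (Lars2 and mt-Nd2) and 0.358 over 10 (Reps1).

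The largest log2 fold changes with P below 0.05 in both sets were in genes of low count. There were 193 such genes (113 higher, 80 lower) among 10384 tested in both sets. Of these 10384, 494 had P below 0.05 over 7 and 509 over 10. Of the 193, the 10 highest and 10 lowest by the smaller absolute value of both fits, predicted genes left out, had absolute values of 2.88 or more in both sets. The higher ones were Fam43a, Hfe, Igf1, Pecam1, Fuk, Slc7a6os, Fam46c, Hyal2, Arsa and Nkiras2. Only Fam43a and Hfe of these were apart in both sets, and the value of Slc7a6os came from 303 CPM in C10. The lower ones were Necap2, Gareml, Aaas, Psph, Sgcd, Dvl1, Dph5, Ndor1, Sptlc1 and Vwa9, of which none was apart over 10. Sptlc1, a subunit of the enzyme that starts sphingolipid synthesis, was at 44.2, 40.0 and 57.6 CPM in the kept vehicle samples and 0, 8.23, 8.77 and 5.18 CPM in the kept Cort samples but at 2.81 CPM in vehicle C01 (log2 fold change -3.10 ± 1.10 over 7 samples and -2.90 ± 1.14 over 10 with P below 0.05 in both). By edgeR Padj was at least 0.889 over 7 samples for every gene of these 20 other than Fam43a, whereas DESeq2 over 7 gave Padj below 0.1 for Fam43a, Hfe, Necap2 (0.00949), Fam46c (0.0195) and Igf1 (0.0583), and voom for none.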

How the data were processed

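RNA-seq was carried out on laser-captured ARC sections with the NuGEN Ovation V2 kit, which amplifies cDNA and does not keep strand, and read as single-end 50 bp reads. Per the study's methods the authors aligned reads to GRCm38 with Rsubread and counted them per gene with featureCounts. Annotation release, strand and multimapping settings are not given in the sources used here. The deposited raw counts of the 4 week table, whole numbers per gene, were used for every result. The deposited normalised values (signal, counts divided by size factors) were read only to check the samples kept, and for the 7 kept samples they equalled count over size factor within a tolerance of 1e-05. The authors' fold change and p-value columns and the 2 day tables were not used. No other column of sample values was set aside (0 columns).

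Samples were grouped by their labelled treatment. Table columns carry only a group and a code, so no replicate number of the labels was tied to a column, and labels do not state whether samples are separate litters or batches. p-values measure the spread between these samples. Counts were tested with edgeR 4.0.16 (quasi-likelihood, TMM scaling, filterByExpr) in R 4.3.3 over the 7 kept and over all 10 samples, with Benjamini-Hochberg adjustment over all genes tested. CPM were scaled by TMM over all 10 samples. Alternatives were DESeq2 1.42.0, limma 3.58.1 (voom with sample quality weights), other scalings, other filters and leaving out each sample. Scripts were tested on simulated data. Summed marker levels were given as ranges with no test.

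Named genes were those the study discusses, those with Padj below 0.1 in either set, the 10 highest and 10 lowest of those with P below 0.05 in both sets (predicted genes left out), ARC peptides, and in each gene list the members with P below 0.05 in both sets plus the 2 with the smallest P. The samples, gene lists and rules were chosen with earlier results of these data known. The genes with P below 0.01 in both sets, and others named beside a list, were added after their values were seen. Gene positions are from GENCODE M21 (GRCm38), in which 21781 of 22048 identifiers matched. Promoters are from RefSeq.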

Additional observations from a re-analysis of the deposited data

Results flagged for a closer look

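In 41 of 339 groups of 4 or 5 samples 1 sample lay far from the others by Dixon's test at the 95% level, where chance flags about 1 in 20. They concerned 36 different values, and the extreme sample was most often C07 (7 times), C02 (6) or C05 (6). Explanations were not tested.

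Among genes apart between the groups in both sets, Fam107a was highest among vehicle samples in C02 (363 CPM) and lowest among Cort samples in C08 (588 CPM), and these remained the values closest to the other group. Hfe was highest in C07 among the kept Cort samples (55.9 CPM) and in C02 among all vehicle samples (1.69 CPM). Fam167a was highest among vehicle samples in C03 (46.1 CPM), Tmem63b in C02 (292 CPM), and Zhx3 among the kept Cort samples in C09 (319 CPM).

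Vehicle C05, which the study left out, stood far above the other vehicle samples for Efnb3 (584 CPM), Esr1 (179 CPM), Gabrb1 (456 CPM), Gsk3a (232 CPM), Klf15 (24.1 CPM) and Rora (313 CPM). Vehicle C01 did so for Dpysl4 (26.2 CPM) and Nkiras2 (3.75 CPM). Cort C06, also left out, stood above the other Cort samples for Camsap2 (927 CPM), Dnajc12 (216 CPM), Tubgcp3 (97.5 CPM) and Ywhab (3346 CPM).

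Cort C07, which was kept, stood above the other Cort samples for Igf1 (131 CPM) and Pecam1 (178 CPM), the latter over all 10 samples too, and had the most genes without a count among the kept Cort samples (39). Cort C10 did so for Cbln1 (75.3 CPM) and Slc7a6os (303 CPM) in both sets. Among vehicle samples, Ptgr2 was highest in C04 (1074 CPM), Glp1r in C03 (37.6 CPM), Gareml in C03 (60.2 CPM), Clic6 in C02 (119 CPM), Foxj1 in C02 (41.8 CPM) and Hyal2 in C02 (8.43 CPM). Among Cort samples, Gabrq was lowest in C09 (161 CPM), Psph highest in C08 (7.05 CPM) and Gareml highest in C08 (4.70 CPM) in both sets. The values for Kiss1 (0.808 CPM in vehicle C03 and 0.202 CPM in Cort C07) and Sox14 (1.62 CPM in vehicle C03) are a few reads each.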

How the results depend on the processing

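Counts of genes depended on the tool and filter more than on scaling. At Padj below 0.1 over 7 samples (4 higher, 1 lower), DESeq2 gave 23 higher and 20 lower, upper quartile scaling 2 higher, no filter 4 lower and a minimum of 10 counts in every sample 2 lower. Over 10 samples (1 higher, 0 lower), DESeq2 gave 21 higher and 12 lower, no filter 3 higher, the minimum of 10 counts 2 higher and voom 6 higher. At P below 0.01 over 7 samples (71 higher, 45 lower), DESeq2 gave 158 and 96, no filter 131 and 109, and voom 46 higher. Over 10 samples (65 and 36), DESeq2 gave 122 and 110 and no filter 140 and 128. The cause was not tested. Leaving out each sample in turn gave, at Padj below 0.1, 0 to 9 higher and 0 to 1 lower genes over 7 samples and 0 to 3 and 0 to 1 over 10, and at P below 0.01, 41 to 67 and 32 to 54 over 7 and 41 to 73 and 29 to 49 over 10. Voom gave C07 the lowest weight over 7 samples, 0.303. The median of the tanycyte list, -0.39 over 7 samples, became -1.03 without C07, an alternative added after the data were seen. None of the 5 genes called changed direction under the alternatives run. The median log2 fold change of all genes, 0.038 over 7 samples and 0.01 over 10, changed sign under some, from -0.032 with voom to 0.089 without C02 over 7 and from -0.021 without C06 to 0.041 without C05 over 10. Another scaling moved the median log2 fold change of all genes by less than 0.1. No paired analysis was possible because the columns of the count table carry no replicate number of the labels. At 1065776 to 5196364 counts, genes under about 3 CPM rest on a few reads and their differences were not detectable at this depth.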
